A study of Mus musculus with 6 samples.

Results

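The giant and M-band proteins of the sarcomere were followed here through 8 genes: *Ttn*, *Neb*, *Nebl*, *Mybpc3*, *Mybpc2*, *Myom1*, *Myom2* and *Myom3*. They were chosen by gene symbol, and every probe that the array annotation assigns to them was taken, which gave 8 of 27307 genes with a symbol and 23 of the 56605 non-control probes on the array. RNA from the hearts of 6 male C57BL/6J mice was labelled with Cy3 and hybridised, each heart to its own array, with 3 hearts that had received AAV NEXN-WT and 3 that had received AAV NEXN-S437E. Both groups are labelled *Clk4*-cKO: by the study's design they carried *Clk4* fl/fl alleles and the α-MHC-MerCreMer transgene, a Cre recombinase expressed in cardiomyocytes, and received tamoxifen as adults to delete the kinase gene *Clk4* there. The AAV9 vectors expressed mouse nexilin (NEXN), an actin-binding sarcomere protein, from a CMV promoter that is not restricted to cardiomyocytes, followed by P2A-GFP, and NEXN-S437E carries glutamate in place of a serine to mimic phosphorylation. NEXN-WT served as the control. By these labels the groups differ in the form of NEXN alone. Hearts with intact *Clk4* were not analysed here, so the deletion itself was not checked.

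Titin, encoded by *Ttn*, spans each half-sarcomere from the Z-disc to the M-band, acts as a molecular spring and serves as a template for the thick filament. Nebulin and its shorter cardiac relative nebulette run along actin from the Z-disc, the myosin-binding proteins C sit on the thick filament and tune cross-bridge cycling, and the myomesins tie thick filaments and titin together in the M-band. In the heart, cMyBP-C, the product of *Mybpc3*, is the predominant protein of its family, nebulette is far more abundant than nebulin, and titin exists as isoforms that differ in the length of their spring by alternative splicing.

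The probes are 60 bases long, and the deposited annotation gives their positions on mm9. Without a genome of that build here, their place in exons, introns or UTRs was not determined. The sequences below were taken from the deposited annotation, are written from 5′ to 3′, and have an open reading frame. They show which parts of the long transcripts were read. The *Ttn* probe A_66_P130483 lies at chr2:76669859-76669918 on the minus strand. Its capitals mark codons for proline, glutamate, valine and lysine, the residues that give titin's elastic PEVK segment its name, and these make up 15 of the 19 codons of its second frame. The same count was 5 of 19 in *Ttn* A_55_P2424042 (chr2:76802542-76802601, minus strand), which the annotation assigns to the N2-B isoform. *Neb* A_55_P2116968 (chr2:52077301-52077360, minus strand) is shown as a probe of a gene that was not detected. *Nebl* A_55_P2628192 (chr2:17298324-17301417, minus strand) is shown because its 60 bases are spread over 3094 bases of genome. *Mybpc2* A_55_P2013665 (chr7:51759105-51759164, minus strand) and *Myom1* A_51_P302520 (chr17:71475839-71475898, plus strand) are shown as probes used in the comparisons between related genes.
Ttn A_66_P130483: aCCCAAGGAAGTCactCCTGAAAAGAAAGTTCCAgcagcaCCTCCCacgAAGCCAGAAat
Ttn A_55_P2424042: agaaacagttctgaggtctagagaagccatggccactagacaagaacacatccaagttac
Neb A_55_P2116968: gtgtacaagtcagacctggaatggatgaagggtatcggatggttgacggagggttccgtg
Nebl A_55_P2628192: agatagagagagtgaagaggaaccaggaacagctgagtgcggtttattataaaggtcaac
Mybpc2 A_55_P2013665: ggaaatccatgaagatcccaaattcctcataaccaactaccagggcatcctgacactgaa
Myom1 A_51_P302520: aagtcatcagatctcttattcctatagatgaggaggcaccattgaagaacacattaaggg

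Values are log2 of the background-subtracted signal relative to the 75th percentile of the same array, so that 0 is the level of that percentile, and they were compared between the groups with limma over 22998 probes. A probe had to be well above background in all 3 hearts of a group to be tested. The 6 arrays were on 1 slide, had 41.9% to 47.8% of their spots well above background and no saturated spot. NEXN-WT replicate 1 stood apart, at a distance of 0.38 and 0.44 from the other NEXN-WT arrays and of 0.50 to 0.56 from the NEXN-S437E arrays, whereas the remaining pairs were 0.19 to 0.33 apart (mean absolute log2 difference). Over all tested probes the log2 fold change had a median of 0.09. Scaling to the percentile of detected probes moved it to −0.02. All 10 cardiomyocyte markers were well above background, as in heart tissue. The *Clk4* probe that passed the filter, A_52_P445387, overlapped between the groups (log2 fold change 0.13, SE 0.18, limma adjusted p = 0.706), as did the *Nexn* probe A_52_P367520 (0.02, SE 0.23). MerCreMer contains the ligand-binding domain of the mouse estrogen receptor, encoded by *Esr1*. The *Esr1* probe A_55_P2030883 gave 3.13, 5.82 and 5.21 with NEXN-WT and −5.30, −5.63 and −5.41 with NEXN-S437E, where it was not well above background in any heart. The groups lay far apart. Of the other *Esr1* probes, A_52_P237077 was also well above background in the 3 NEXN-WT hearts alone, A_65_P17231 in 3 NEXN-WT and 2 NEXN-S437E hearts, and the remaining 4 in no heart. Whether A_55_P2030883 lies in the stretch that MerCreMer contains was not determined here, and whether the transgene was equally expressed in both groups was not tested. For every value below, a difference in the transgene between the groups could not be told apart from the form of NEXN. In these bulk samples, fewer cells of a type and less RNA per cell cannot be told apart.

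None of the 7 genes with a tested probe passed the adjusted threshold. Of the 23 probes, 15 probes of 7 genes passed the filter. Among these 15, 0 passed an adjusted p of 0.05 (limma with Benjamini-Hochberg adjustment, smallest adjusted p = 0.230), against 0.161% of all tested probes, and 0 reached the study's criteria of a 2-fold change with an unadjusted p of 0.05, against 2.52%. The point estimates were higher with NEXN-S437E in 12 and lower in 3 probes, with a median log2 fold change of 0.19, and 11 of the 15 lay above the median of all tested probes. At an unadjusted p of 0.05, 3 members were called, all higher, which is 20.0% of those tested, close to the 17.2% of all tested probes called in either direction (10.5% higher and 6.7% lower). They were *Ttn* A_55_P2153021 and both *Myom2* probes. The widest 95% bounds of the 15 probes ran from 0.668-fold to 2.00-fold, so that differences up to about this size remain within the error of 3 hearts per group. Array weights, which let noisier arrays count less, took the same 3 probes past the adjusted threshold (lowest adjusted p = 0.0128 from limma), but that setting called 3820 probes in all in place of 37. The unadjusted count fell to 0 with the percentile over detected probes and with the replicate number as a block, and to 1 after quantile normalization, in the deposited values and with normexp background correction. Leaving out NEXN-WT replicate 1 gave 2 calls, leaving out replicate 3 of that group gave 1, and leaving out its replicate 2 or NEXN-S437E replicate 3 gave 0.

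**Figure D1:**
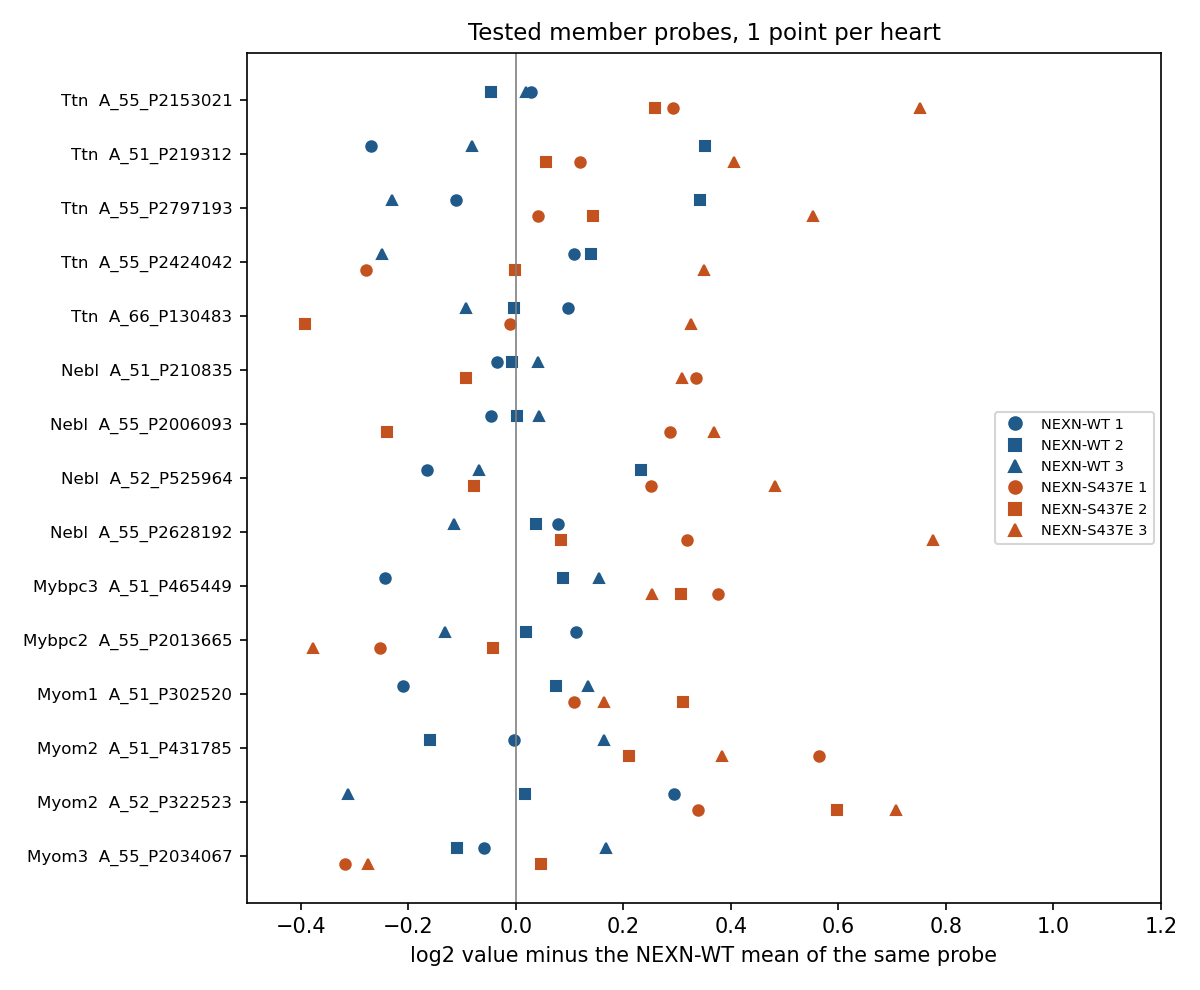
Log2 value of each of the 15 tested probes in each heart, with the mean of the 3 NEXN-WT hearts of the same probe subtracted (x axis), for NEXN-WT (blue) and NEXN-S437E (orange) replicates 1 to 3 (symbols). The NEXN-S437E points lie to the right of all NEXN-WT points for 5 probes and to the left of them for 0, and NEXN-S437E replicate 3 is the highest heart in 9 probes.

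*Ttn* was measured by 6 probes spread over 260.5 kb of genome, from the most upstream probe, A_55_P2424042, to the most downstream, A_55_P2153021. The most downstream probe (chr2:76542077-76542136, minus strand) read 5.54, 5.46 and 5.53 in the NEXN-WT hearts and 5.80, 5.77 and 6.26 in the NEXN-S437E hearts. All 3 NEXN-S437E hearts were above the NEXN-WT hearts, and replicate 3 was well above the other two. The log2 fold change was 0.43 (SE 0.17, 1.35-fold, 95% interval 1.03 to 1.78, limma adjusted p = 0.260). In the deposited normalized values the difference was 0.22, and it was 0.28 without NEXN-S437E replicate 3. A_55_P2797193, close by at 259.9 kb (chr2:76542655-76542714), read 2.20, 2.65 and 2.08 with NEXN-WT and 2.35, 2.45 and 2.86 with NEXN-S437E, and the groups overlapped through NEXN-WT replicate 2 (log2 fold change 0.25, SE 0.21, limma adjusted p = 0.548, 0.09 to 0.42 with an array left out).

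Of the remaining *Ttn* probes, 3 were tested. A_51_P219312, 50.4 kb from the most upstream probe (chr2:76752155-76752214), read 2.72, 3.34 and 2.91 with NEXN-WT and 3.11, 3.04 and 3.39 with NEXN-S437E, a log2 fold change of 0.19 with overlap (0.06 to 0.37 with an array left out). The N2-B-annotated probe read 0.83, 0.86 and 0.48 with NEXN-WT and 0.44, 0.72 and 1.07 with NEXN-S437E. The difference was 0.02 on the log2 scale (SE 0.20, 1.02-fold, 95% interval 0.735 to 1.41), and its sign turned with the scaling. The annotation names N2-A for A_55_P2153021 and A_55_P2797193. Whether any of these probes tells isoforms apart was not determined. The probe A_66_P130483, shown above for its PEVK codons and lying at 132.7 kb, read 0.19, 0.09 and 0.00 with NEXN-WT and 0.08, −0.30 and 0.42 with NEXN-S437E. Its hearts spread more with NEXN-S437E (SD 0.36, n = 3) than with NEXN-WT (SD 0.10, n = 3), and the log2 fold change was −0.03 (SE 0.20). The dim probe A_66_P130044, whose 60 bases span 180 bases of genome at chr2:76674450-76674629, was well above background in NEXN-WT replicate 1 and NEXN-S437E replicates 1 and 3, and was not tested. It read −3.21, −3.43 and −4.22 with NEXN-WT and −2.79, −3.72 and −2.51 with NEXN-S437E, a difference of 0.62 between the means with overlap. The 5 tested *Ttn* probes thus ranged from −0.03 to 0.43 on the log2 scale, with intervals that all overlapped each other. The differences between the probes were not tested.

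**Figure D2:**
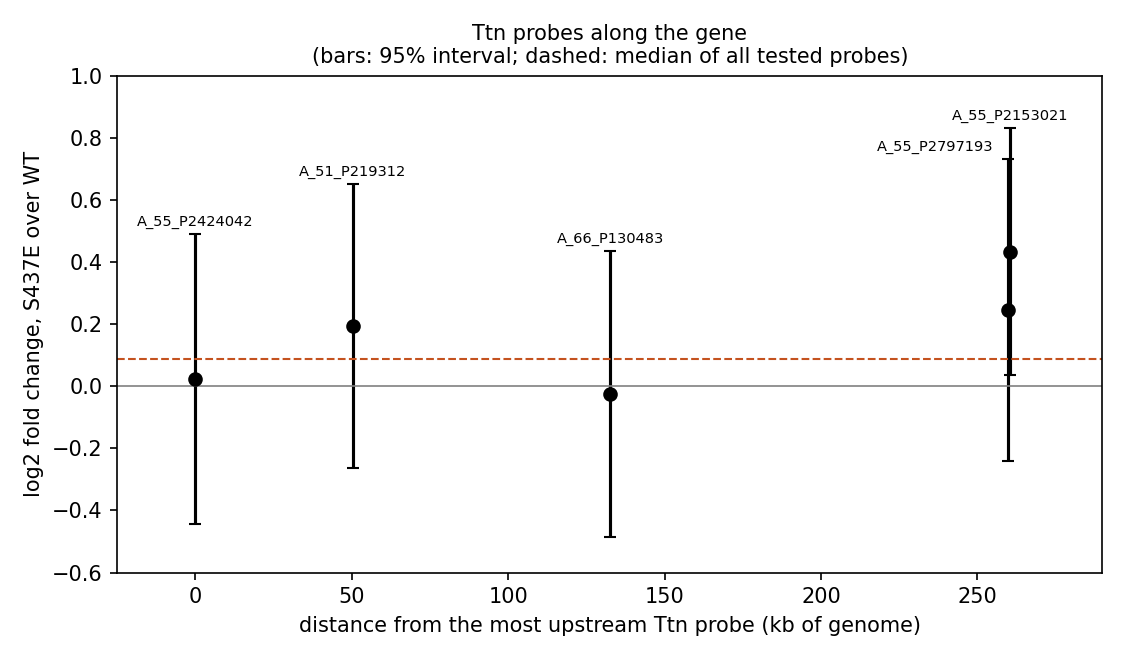
Log2 fold change (y axis) of the 5 tested *Ttn* probes by their distance in kb of genome from the most upstream probe (x axis), with 95% intervals from limma and the median of all tested probes as a dashed line. The probe at 260.5 kb is the only one of the 5 whose interval lies off 0.

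Nebulin, the actin ruler of skeletal muscle, was not detected. All 4 *Neb* probes were not well above background on any array, with values from −6.16 to −3.51, and each value lay below the lowest well-above-background value of its own array (−4.00 to −3.08). No fold change is given for them. Nebulette, which links the Z-disc to the thin filament in heart muscle, was measured by 6 *Nebl* probes, of which 4 passed the filter. The other two, A_55_P2064928 and A_55_P2717214, were not well above background on any array.

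*Nebl* A_55_P2628192, the probe spread over 3094 bases of genome, read 0.27, 0.23 and 0.08 in the NEXN-WT hearts and 0.51, 0.28 and 0.97 in the NEXN-S437E hearts. The groups did not overlap, although NEXN-S437E replicate 2 was barely above the highest NEXN-WT heart. Its log2 fold change was 0.39 (SE 0.20, 1.31-fold, 95% interval 0.957 to 1.80, limma adjusted p = 0.342), and 0.20 without NEXN-S437E replicate 3. The remaining 3 *Nebl* probes overlapped between the groups. A_51_P210835 read 3.45, 3.48 and 3.53 with NEXN-WT and 3.82, 3.39 and 3.79 with NEXN-S437E, and A_55_P2006093 read 1.24, 1.29 and 1.33 against 1.58, 1.05 and 1.66. In both, NEXN-S437E replicate 2 was below all NEXN-WT hearts and the other two NEXN-S437E hearts were above them, so that the SD was 0.04 in both with NEXN-WT and 0.24 and 0.33 with NEXN-S437E (n = 3). A_52_P525964 read 0.90, 1.30 and 1.00 against 1.32, 0.99 and 1.55. The log2 fold changes of these 3 probes were 0.18, 0.14 and 0.22 (limma adjusted p = 0.561, 0.710 and 0.559). With an array left out they ran from 0.11 to 0.32, 0.02 to 0.33 and 0.09 to 0.37, each highest without NEXN-S437E replicate 2. In the deposited values the differences were 0.08, 0.10 and 0.18, in the same order.

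The cardiac myosin-binding protein C gene *Mybpc3*, a frequent site of mutations in hypertrophic cardiomyopathy, was read by a single bright probe, A_51_P465449 (chr2:90976577-90976636, plus strand). It had values of 8.97, 9.30 and 9.36 with NEXN-WT and 9.59, 9.52 and 9.46 with NEXN-S437E. All 3 NEXN-S437E hearts were above the NEXN-WT hearts, and NEXN-WT replicate 1 was the lowest. The log2 fold change was 0.31 (SE 0.16, 1.24-fold, 95% interval 0.965 to 1.60, limma adjusted p = 0.343), and it was 0.19 without NEXN-WT replicate 1. Its direction depended on the scaling: the difference was −0.09 after quantile normalization and −0.06 in the deposited values, where all 6 hearts lay between 16.61 and 16.87.

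*Mybpc2*, which encodes the fast skeletal muscle form, was well above background on all 6 arrays. Its probe read 0.94, 0.84 and 0.69 with NEXN-WT and 0.57, 0.78 and 0.45 with NEXN-S437E. NEXN-S437E replicate 2 lay within the range of the NEXN-WT hearts and the other two below it, and the log2 fold change was −0.22 (SE 0.15, 0.856-fold, 95% interval 0.668 to 1.097, limma adjusted p = 0.462), and −0.31 to −0.15 with an array left out. Of 10 fast skeletal muscle markers, 7 passed the filter and *Myh1*, *Myh2* and *Actn3* did not, with 1 higher and 1 lower at an unadjusted p of 0.05. Their summed linear signal was 2.96 to 5.10 times the percentile with NEXN-WT and 4.80 to 5.94 times with NEXN-S437E, and the part of skeletal muscle RNA in the *Mybpc2* signal was not tested.

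*Myom1* encodes myomesin 1, the M-band bridge found in all striated muscle. A_51_P302520 read 4.78, 5.06 and 5.12 with NEXN-WT and 5.10, 5.30 and 5.15 with NEXN-S437E. The groups overlapped, and the log2 fold change was 0.19 (SE 0.16, 1.14-fold, 95% interval 0.892 to 1.47, limma adjusted p = 0.521), and 0.09 without NEXN-WT replicate 1. In the deposited values the difference was 0.03. The dim *Myom1* probe A_52_P515744 was well above background in NEXN-WT replicate 2 and NEXN-S437E replicates 2 and 3 and was not tested. It read −3.78, −2.25 and −3.50 with NEXN-WT and −3.35, −2.64 and −2.83 with NEXN-S437E.

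*Myom2* encodes M-protein, the myomesin of fast skeletal and heart muscle, and both of its probes were among the 3 called at the unadjusted threshold. A_51_P431785 (chr8:15133322-15133381, plus strand) read 7.86, 7.70 and 8.03 with NEXN-WT and 8.43, 8.08 and 8.25 with NEXN-S437E. The groups did not overlap, and the log2 fold change was 0.39 (SE 0.16, 1.31-fold, 95% interval 1.01 to 1.69, limma adjusted p = 0.278). In the deposited values this difference was 0.02, and the groups were 15.65, 15.14 and 15.36 against 15.53, 15.25 and 15.44. A_52_P322523, 59.7 kb upstream (chr8:15073624-15073683), was much dimmer but well above background on all 6 arrays. It read −2.05, −2.32 and −2.65 with NEXN-WT and −2.002, −1.74 and −1.63 with NEXN-S437E, again without overlap. Its log2 fold change of 0.55 was the largest among the 15 tested probes (SE 0.19, 1.46-fold, 95% interval 1.07 to 2.00, limma adjusted p = 0.230), and it was 0.53 in the deposited values. The sequence of this dim probe has 0 open reading frames, against 2 for A_51_P431785. Whether it reads the coding *Myom2* transcript was not determined.

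*Myom3*, encoding the third myomesin, known from intermediate-speed skeletal fibres, was read by A_55_P2034067 (chr4:135371377-135371436, plus strand). Its values were −0.22, −0.27 and 0.01 with NEXN-WT and −0.48, −0.11 and −0.43 with NEXN-S437E. NEXN-S437E replicate 2 lay within the NEXN-WT range and the other two were below it. The log2 fold change was −0.18 (SE 0.16, 0.881-fold, 95% interval 0.678 to 1.15, limma adjusted p = 0.568), and −0.30 to −0.098 with an array left out.

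**Figure D3:**
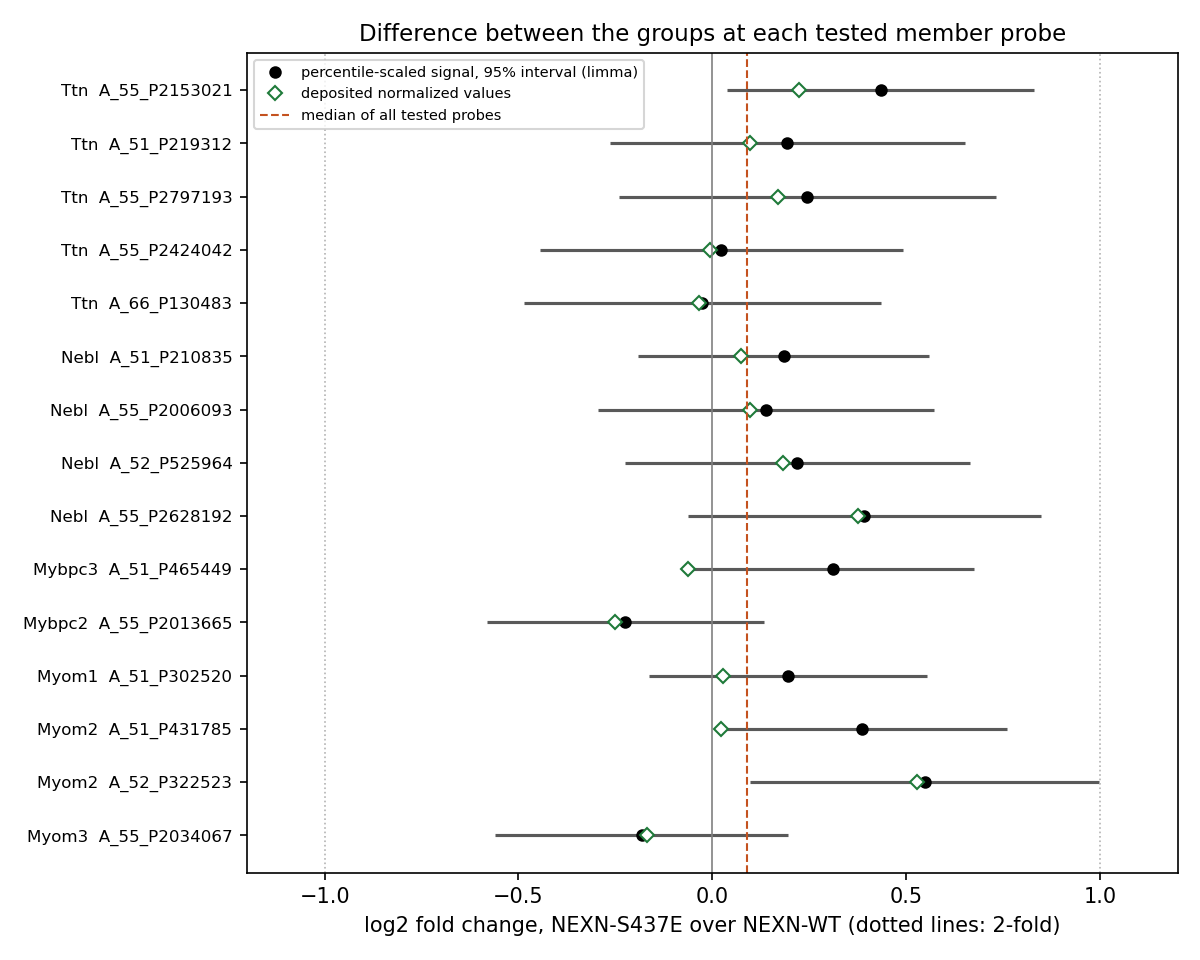
Log2 fold change of NEXN-S437E over NEXN-WT (x axis) for the 15 tested probes, as scaled to the percentile with 95% intervals from limma (black) and as the difference of the deposited normalized values (green diamonds). The deposited difference is 0.02 in place of 0.39 for *Myom2* A_51_P431785 and −0.06 in place of 0.31 for *Mybpc3*, both bright probes, and no interval passes 2-fold.

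Groups did not overlap in 5 of the 15 tested probes, all with NEXN-S437E higher (33.3%). Over all tested probes 18.7% were higher without overlap and 9.17% lower. The 5 were *Ttn* A_55_P2153021, *Nebl* A_55_P2628192, *Mybpc3* and both *Myom2* probes. NEXN-S437E replicate 3 was the highest of the 6 hearts in 9 probes, among them all 5 tested *Ttn* probes and 3 of the 4 *Nebl* probes, and NEXN-WT replicate 1 was the lowest in 4. The median SD of the 15 tested probes, 5 of them of *Ttn* and 4 of *Nebl*, was 0.16 with NEXN-WT and 0.24 with NEXN-S437E (n = 3). This is the opposite order to all tested probes (0.24 and 0.16). *Mybpc3*, *Myom1*, *Myom2* A_52_P322523 and some *Ttn* probes had the larger SD with NEXN-WT. In the deposited values the members' median difference was 0.08, with 10 higher and 5 lower.

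Differences between related genes within the same heart do not depend on how an array is scaled by a single factor. The brightest probe of each gene was used, and 4 differences were tested with an exact two-sided permutation test, for which 3 hearts against 3 cannot give a p below 0.1. *Myom3* minus *Myom1* was −4.997, −5.33 and −5.11 with NEXN-WT and −5.57, −5.41 and −5.59 with NEXN-S437E. All 3 NEXN-S437E hearts were lower, by 0.38 on average (exact permutation p = 0.1, adjusted p = 0.2). *Mybpc2* minus *Mybpc3* was −8.03, −8.45 and −8.67 against −9.01, −8.74 and −9.02, again lower in all 3 NEXN-S437E hearts, with a shift of −0.54 (exact permutation p = 0.1, adjusted p = 0.2). *Myom2* minus *Myom1* shifted by 0.19 (exact permutation p = 0.4, adjusted p = 0.5) and *Ttn* minus *Mybpc3* by 0.12 (exact permutation p = 0.5, adjusted p = 0.5), both with overlap. With an array left out the former ran from 0.06, without NEXN-S437E replicate 1, to 0.34, without replicate 2 of that group. In the deposited values the *Mybpc2* and *Mybpc3* shift was −0.19 (exact permutation p = 0.1). That of *Myom3* and *Myom1* was −0.20 there, with overlap between the groups (exact permutation p = 0.2). The deposited shift was −0.0057 for *Myom2* minus *Myom1* and 0.29 for *Ttn* minus *Mybpc3*. *Neb* and *Nebl* could not be compared, since *Neb* was not detected.

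**Figure D4:**
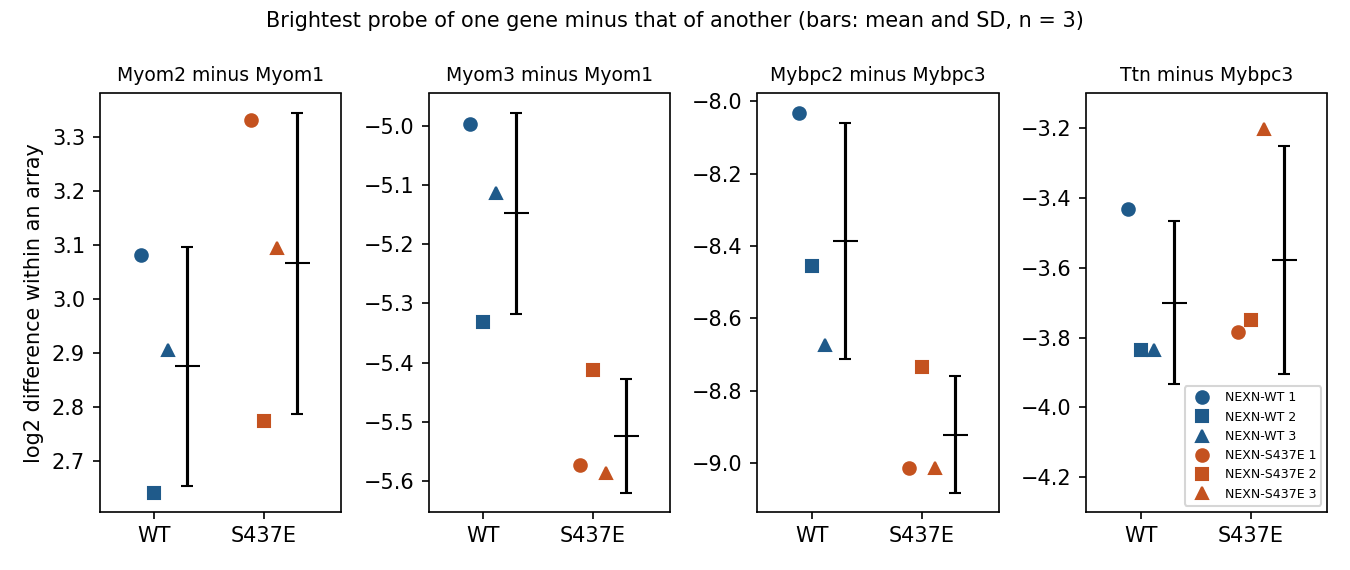
Log2 value of the brightest probe of one gene minus that of another within the same heart (y axis) for 4 pairs of genes, with NEXN-WT in blue and NEXN-S437E in orange, a point per heart and the mean and SD (n = 3) beside the points. In these percentile-scaled values the groups are apart for *Myom3* minus *Myom1* and *Mybpc2* minus *Mybpc3* and overlap for the other pairs.

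Among 19 proteins that titin and the M-band bind, 18 passed the filter, 3 were higher and 1 lower at an unadjusted p of 0.05, where 10.5% of all tested probes were higher and 6.7% lower, and the median log2 fold change was 0.38, against 0.09 over all tested probes (0.13 in the deposited values). Those higher were *Tcap*, which caps titin's end at the Z-disc (0.60, SE 0.20, limma adjusted p = 0.217), *Capn3*, a protease that binds titin (0.78, SE 0.26, limma adjusted p = 0.217), and *Trim54*, a ubiquitin ligase of the MuRF family (0.50, SE 0.20, limma adjusted p = 0.258). *Ankrd1*, a stretch-responsive protein of titin's N2A region, was lower (−0.68, SE 0.22, limma adjusted p = 0.214). Without NEXN-WT replicate 1, the array that stood apart, the median was 0.15, 1 gene was higher and 1 lower, and the log2 fold changes were 0.39 for *Tcap*, 0.57 for *Capn3*, 0.31 for *Trim54* and −0.44 for *Ankrd1*. In the deposited values *Tcap* gave 0.23.

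The thick filament list, with 9 of 13 genes tested, had 3 higher and 2 lower and a median of 0.42 (0.15 in the deposited values). *Myh6*, the adult mouse cardiac myosin heavy chain, was higher (0.58, SE 0.16, limma adjusted p = 0.176), as were *Mylk3*, the cardiac myosin light chain kinase (0.57, SE 0.15, limma adjusted p = 0.159), and *Myh7b* (0.42, SE 0.14, limma adjusted p = 0.216). *Myh7*, the fetal and slow myosin heavy chain, was lower (−2.33, SE 0.38, limma adjusted p = 0.0815), as was *Myl4*, the atrial light chain (−0.62, SE 0.22, limma adjusted p = 0.227). Without NEXN-WT replicate 1 the median of this list was 0.25, and in the deposited values *Myh6* gave 0.20 and *Myh7b* 0.27. The MyBP-C relatives *Mybpc1*, *Mybph* and *Mybphl* did not pass the filter. Among the nebulin relatives and thin filament length proteins, 9 of 10 genes were tested and 2 were higher, with a median of 0.19 (0.12 in the deposited values). These were *Tmod4*, a pointed-end capping tropomodulin (0.98, SE 0.33, limma adjusted p = 0.221), and *Lmod3*, a leiomodin that nucleates actin (0.51, SE 0.21, limma adjusted p = 0.267). Without NEXN-WT replicate 1 they gave 0.60 and 0.31, and *Lmod3* gave 0.34 in the deposited values.

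Of 9 muscle splicing factors, all tested, 1 was higher and 0 were lower, and the median was 0.05 (0.01 in the deposited values). The higher gene was *Rbfox1*, which binds intronic sequence beside alternative exons (0.97, SE 0.32, limma adjusted p = 0.213), with a log2 fold change of 0.56 without NEXN-WT replicate 1. *Rbm20*, the main splicing repressor of titin's spring exons, gave 0.16 with overlap between the groups, and −0.04 without that array. On these 4 lists 0 genes passed the adjusted threshold in limma, whereas 12 of the 45 tested passed the unadjusted p of 0.05 (26.7%, against 17.2% of all tested probes). The lists were chosen with earlier results of these data known. They count the brightest tested probe of each gene, whereas the 17.2% counts every tested probe, so these shares are not like for like. Of these 12, *Myh6*, *Mylk3*, *Myh7* and *Rbfox1* stayed below that p with each array left out in turn, and the other 8 did not with at least 1 array left out.

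**Figure D5:**
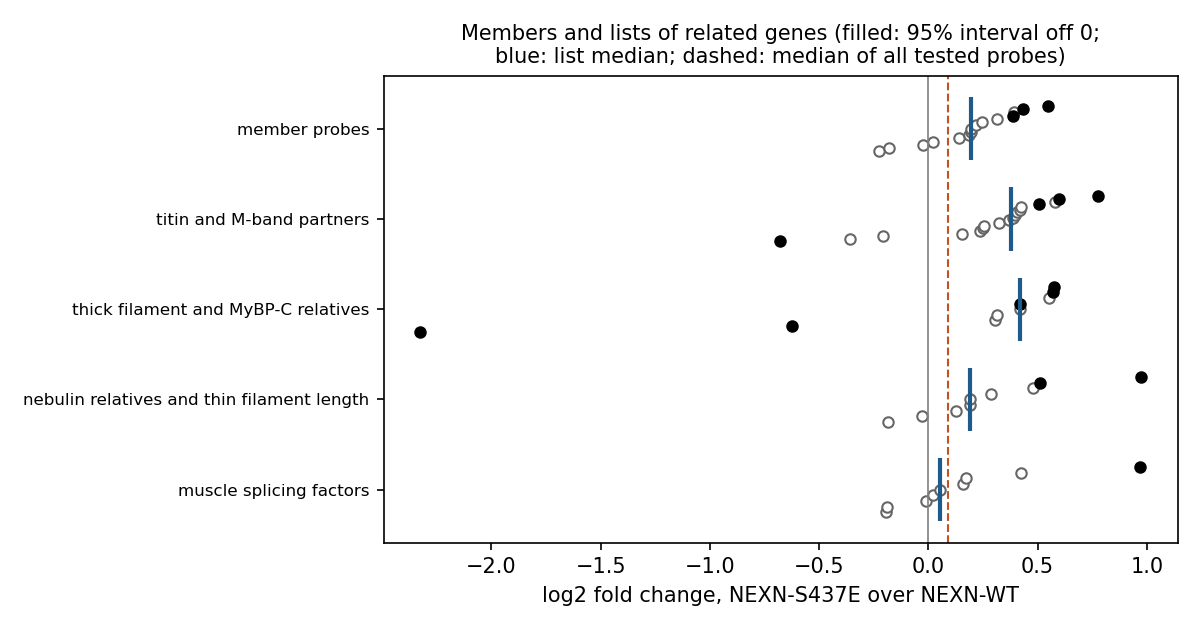
Log2 fold change of NEXN-S437E over NEXN-WT (x axis) for the 15 tested member probes and for the brightest tested probe of each gene on the 4 lists of related genes, filled where the 95% interval from limma lies off 0, with the median of each list in blue and of all tested probes dashed. The members' median is 0.19, and the lists' medians run from 0.05 to 0.42.

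Some markers of cell types also differed at an unadjusted p of 0.05, where 10.5% of all tested probes were higher and 6.7% lower. At the adjusted threshold in limma, 2 T cell markers and *Nppa* passed, and 0 cardiomyocyte and 0 fibroblast markers did. Of the 10 cardiomyocyte markers 6 were higher at an unadjusted p of 0.05, with a median log2 fold change of 0.42 (0.20 in the deposited values), and their summed signal was 1383 to 2102 times the percentile with NEXN-WT and 2432 to 2521 times with NEXN-S437E. The lowest sum was that of NEXN-WT replicate 1, without which 2 of the 10 were higher, with a median of 0.28. Without NEXN-S437E replicate 2 or replicate 3 it was 1 of the 10, with medians of 0.40 and 0.45. Of 7 fibroblast markers 6 were lower (sum 632 to 1019 against 450.1 to 485), and all 3 T cell markers were lower (1.64 to 2.32 against 0.571 to 0.818). The part of these markers' differences in the members' values was not tested. Of 4 atrial markers, *Myl7* and *Sln* did not pass the filter, and *Myl4* and *Nppa* were lower. *Nppa* is also on the hypertrophy list. Of the 4 hypertrophy markers 3 were lower, with a sum of 718 to 818 against 338 to 374. Of 2 slow skeletal muscle markers 1 was higher (sum 3.85 to 8.22 against 8.27 to 9.88). For macrophage, endothelial and smooth muscle, 0 markers passed the unadjusted p in limma.

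The members did not share a single course over the 6 hearts. The 3 genes whose probes followed a member's brightest probe most closely, among 18891 probes, were *Srek1ip1*, *D630045M09Rik* and *BC068281* for *Ttn*, *Zfp110*, *Dnah8* and *Nup205* for *Nebl*, and *Idh3g*, *Cbr2* and *Phpt1* for *Mybpc3*. They were *Ptpn1*, *9930104L06Rik* and *Rpe* for *Mybpc2*, *Actl6a*, *Tmbim4* and *Hagh* for *Myom1*, *1700088E04Rik*, *Fam107a* and *Gkn3* for *Myom2*, and *Cyp4f16*, *Arl4c* and *Myo1g* for *Myom3*. Pearson's r over the 6 arrays was 0.97 to 1.00 for all of them. These are the highest r among 18891 probes over 6 hearts, so their size follows largely from the selection. Between members, *Mybpc3* and *Myom1* had r = 0.87 and *Nebl* and *Myom2* r = 0.79, whereas *Mybpc2* had r from −0.88 to −0.50 with *Ttn*, *Nebl*, *Mybpc3*, *Myom1* and *Myom2*, and 0.53 with *Myom3*. These values describe 6 hearts that share the group difference and the scaling of each array.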

How the data were processed

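The study used 1-colour Agilent mouse gene expression arrays, which the authors read out in Feature Extraction 10.7.1.1, per the labels. The deposited intensity of each spot has the background subtracted and is not normalized between arrays. The deposited log2 table was normalized by a method not given in the sources used here, and its 6 columns hold identical sorted values. Groups and replicate numbers came from the labels, and nothing beyond the stated 3 animals per group separates biological from technical spread.

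Control and outlier spots were left out, log2 signals were set against each array's 75th percentile over non-control spots, and spots of a probe were averaged. Groups were compared with limma 3.58.1 (lmFit, eBayes) in R 4.3.3 with Benjamini-Hochberg adjustment over all tested probes. The test was checked on simulated data. Probes, tables and figures used Python 3.11.15, pandas 2.3.3, scipy 1.17.1 and matplotlib 3.10.9. All 23 member probes carry the Entrez ID of the same symbol in RefSeq's gene table (GRCm38.p6, names only). The sequences are from the deposited array annotation.

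The members and gene lists were chosen with earlier results of these data known. All member probes are accounted for, up to 5 genes of each list with the smallest unadjusted p under 0.05 are named, and *Rbm20* was named after its values had been seen. Of the probes most like a member over the 6 arrays, 3 are named. Alternatives were the normalizations, filters, blocks, weights, single probes per gene, the t-test named in the study's legend, and each array left out.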

Additional observations from a re-analysis of the deposited data

How the results depend on the processing

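The 3 hearts per group and, for dim probes, the background limit these comparisons. Over 277 pairs of a member probe and an alternative, 13 turned the direction, all in 4 probes, and 3 passed the adjusted threshold, all with array weights (limma): *Ttn* A_55_P2153021 (0.59, adjusted p = 0.0312), *Myom2* A_51_P431785 (0.46, adjusted p = 0.0296) and A_52_P322523 (0.65, adjusted p = 0.0128). *Ttn* A_55_P2424042 was −0.014 after quantile normalization, −0.0067 in the deposited values, −0.087 with the percentile over detected probes, −0.051 with normexp, −0.28 with the slide row as a block, and −0.14 to 0.17 with an array left out. *Ttn* A_66_P130483 was 0.083 with array weights and −0.20 to 0.16 with an array left out, *Ttn* A_51_P219312 was −0.0051 with array weights, and *Mybpc3* was −0.092 after quantile normalization and −0.063 in the deposited values. The cause was not tested.

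The count of 3 members at an unadjusted p of 0.05 became 1 after quantile normalization, in the deposited values, with normexp, with the methods' t-test and with the slide row as a block, 0 with the percentile over detected probes, 5 with array weights, and 0 to 3 with an array left out. The slide row block compares NEXN-S437E replicate 1 with the NEXN-WT hearts, since row 2 holds 2 NEXN-S437E arrays only. The count of 12 on the 4 related lists became 5 with the methods' t-test and with the slide row block and 20 with array weights. Of all tested probes, the 37 past the adjusted p became 7 without a filter on dim probes, 20 with detection on all 6 arrays, 0 with the methods' t-test (at the unadjusted threshold it called 1 member and 5 of the list genes), 24 with the slide row block, 80 with an intensity trend, 3820 with array weights, and 12 to 128 with an array left out (12 when NEXN-WT replicate 2 was dropped, 128 when replicate 1 was). The 579 at the study's criteria became 180 with normexp, 2269 without a filter, 345 with detection on all 6 arrays and 361 to 900 with an array left out.

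Within hearts, *Myom2* minus *Myom1* shifted by −0.0057 in the deposited values. *Myom3* minus *Myom1* shifted by −0.21 after quantile normalization, −0.20 in the deposited values and −0.18 with normexp, and *Mybpc2* minus *Mybpc3* by −0.17 and −0.19 in the first and second of these. The groups overlapped for *Myom3* minus *Myom1* in each of these settings (exact permutation p = 0.2). They also overlapped for *Mybpc2* minus *Mybpc3* after quantile normalization (exact permutation p = 0.2). *Ttn* minus *Mybpc3* shifted by 0.33 after quantile normalization and 0.29 in the deposited values, and by −0.066 (without NEXN-S437E replicate 3) to 0.26 with an array left out.

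With the replicate number as a block, 0 members passed the unadjusted p of 0.05 in limma in place of 3, and 37 of all tested probes passed the adjusted p. The deviations of same-numbered arrays correlated by −0.15, −0.03 and −0.18, and those of arrays with different numbers by −0.07 to 0.18. With 3 arrays per group these values cannot show whether same-numbered arrays share more than a number.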
